A study of Mus musculus with 10 samples.

Results

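The regions described here are the 500 kb bins of the mouse autosomes in which neither naive B cells nor plasma cells had an ATAC-seq peak. A bin was taken where no peak midpoint of either deposited peak list fell in it and where its row sum was above 0 in both balanced contact maps (mm9, chromosomes 1 to 19, bins counted from the first base). The rule gave 826 of 4815 bins with a row sum above 0 in both maps, which is 17.15% of them and 413 Mb. A further 136 bins without a peak were left out because their row was empty in at least 1 map. The peak counts chose the bins, so the absence of peaks is a description and is not tested below. The contact values come from another assay, of which the rule used only that the row sum was above 0.

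The series compares naive B cells with plasma cells of C57BL/6 mice by ATAC-seq, which cuts open chromatin, by RNA-seq, and by tethered conformation capture (TCC), which joins DNA ends that lie close together in fixed nuclei. It holds 10 samples, of which 6 were used, 1 library per cell type and assay, and the 4 ChIP-seq samples were not analysed here. Naive cells for ATAC-seq and RNA-seq were wild-type spleen cells sorted as CD23+IgD+, and naive cells for TCC were wild-type spleen cells purified with beads for CD23, not by the same sort. Plasma cells for ATAC-seq were wild-type bone marrow cells sorted as CD138+ and negative for B220, IgD, CD4, CD8, Gr1 and Ter119, and both ATAC-seq libraries used 50000 cells. Plasma cells for TCC came from Blimp-GFP mice, which carry a green fluorescent reporter of Blimp1. Their source label calls them ex vivo cells, whereas their protocol describes GFP+ cells sorted after 3 days of culture with 10 µg/ml of the bacterial product LPS. The plasma cell RNA has a similar conflict between a label naming activation in culture and a protocol naming bone marrow. The bins were therefore chosen with peaks of bone marrow plasma cells, and their plasma cell contacts may come from cultured cells, with a reporter allele that the naive cells lack. Cell type, source, genotype and library cannot be told apart in any difference between the maps.

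Most of a mammalian chromosome's length is poor in open regulatory elements. Such chromatin is typically gene-poor, replicates late, lies at the nuclear lamina or around the nucleoli, and forms the B compartment of contact maps, while open and active chromatin forms the A compartment. Regions of the same compartment contact each other more often than regions of opposite compartments, within a chromosome and between chromosomes. When a B cell becomes a plasma cell, Blimp1 (Prdm1) shuts down much of the B cell programme and Xbp1 expands the secretory apparatus.

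The RNA libraries carried the markers of their labels with 1 exception. Fcer2a, which encodes CD23, was at 1062 TPM (transcript abundance scaled to the same library total) in naive and 6.78 in plasma cells, and Pax5, the B cell identity factor, at 346 and 15.7. Prdm1 was at 2.29 and 249 TPM, and Xbp1 at 109 and 939. Sdc1, the gene of the CD138 antigen used in the plasma cell sort, was at 11.1 TPM in naive and only 5.38 in plasma cells. The summed level of 4 myeloid markers was 121 TPM in naive and 0.766 in plasma cells, that of 4 T and NK cell markers 29.2 and 0.572, and that of 4 erythroid markers 49.2 and 2.28. The naive contact library came from a different purification, so these levels do not show whether such other cells were in it. Any part of such cells in the contact differences was not tested.

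Peak-free bins were spread over all autosomes, mostly in short runs. They formed 534 runs of adjacent bins, of which 344 were a single bin, 116 were 2 bins, 54 were 3, 13 were 4, 6 were 5 and 1 was 6 bins long. The mean run was 0.773 Mb and the longest 3 Mb. The 20 runs of at least 4 bins held 88 of the bins. A total of 482 bins, or 58.35%, had a peak-free neighbour. Of the bins next to a peak-free bin, 35.5% were themselves peak-free, against 13.38% of the bins next to a bin with peaks. Their neighbours that did have peaks held few: the median was 3 peaks, against 13 for the neighbours of other bins. Only 9.61% of the neighbours of peak-free bins held at least 16 peaks, against 38.17% for other bins. Neighbours with 1 to 3 peaks made up a further 32.28% for peak-free bins and 19.06% for other bins.

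**Figure D1:**
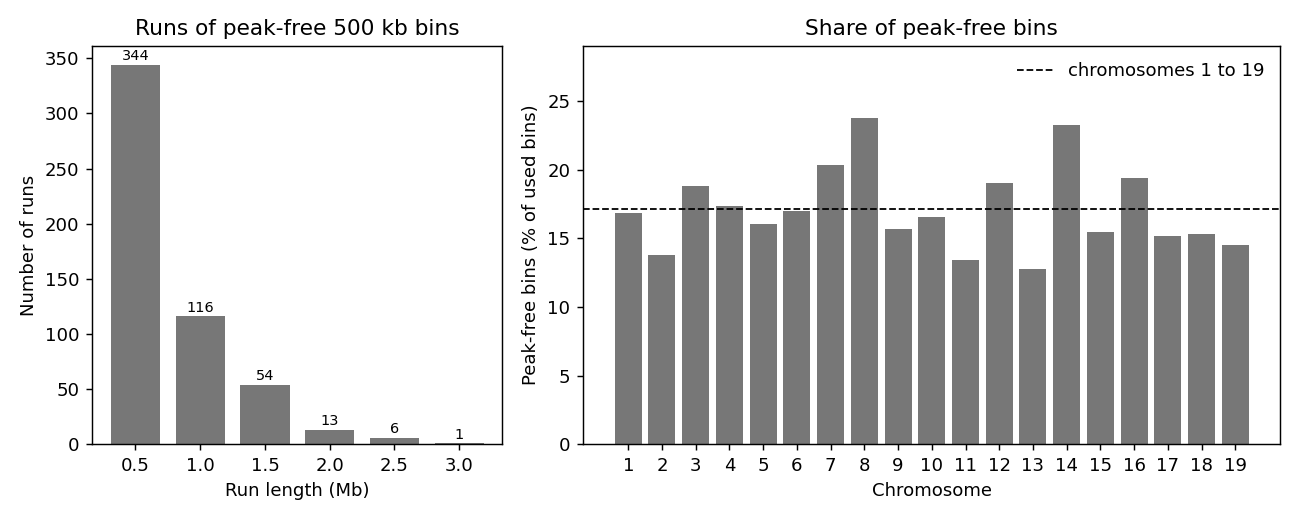
Left, the number of runs of adjacent peak-free bins (vertical axis) by run length in Mb (horizontal axis). Right, the percent of used bins that were peak-free on each autosome, with the value over all autosomes (17.15%) as a dashed line. Single bins make up 344 of 534 runs, and chromosomes 8 and 14 stand highest, at 23.72% and 23.27%.

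The share of peak-free bins differed between chromosomes. It was highest on chromosome 8 (60 of 253 bins, 23.72%) and chromosome 14 (57 of 245, 23.27%), and lowest on chromosome 13 (30 of 235, 12.77%) and chromosome 11 (32 of 238, 13.45%). Chromosome 1 had the most such bins, 65, and chromosome 19 the fewest, 17. Along the chromosomes, 53 of 341 used bins in the first 12 Mb, next to the centromere of these telocentric chromosomes, were peak-free (15.54%). In the last 12 Mb 56 of 454 were (12.33%), and between the ends 717 of 4020 (17.84%).

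The threshold separates the bins from close neighbours in peak number. Just inside it lie the 826 bins with 0 peaks, and just outside it 449 bins with 1 peak, which came from the naive list in 361 and from the plasma list in 88. The naive list held 29868 peaks and the plasma list 30475. In the naive list 971 used bins had no peak and in the plasma list 1400, so that 574 bins without a plasma peak had a naive one and 145 had the reverse. A base of a peak reached into 2 of the peak-free bins, although its midpoint lay outside. Other used bins held a median of 11 peaks.

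Peak-free bins carried fewer contacts in the raw maps than other bins. The maps were balanced by the authors, that is, scaled so that every bin has the same total, and the read pairs behind each entry were recovered from them. The maps held 35700605 read pairs among autosomal bins in naive and 37052401 in plasma cells, of which 8558141 and 7188727 joined different autosomes. A peak-free bin had a median of 2264 read pairs with other autosomes in naive and 2087 in plasma cells, and a bin with peaks 3797 and 3160. The median peak-free bin had a nonzero entry with 35.23% of the bins of other chromosomes in naive and 33.33% in plasma cells, against 46.79% and 42.96% for other bins. In 6 peak-free bins the row had been left unbalanced in at least 1 map, so averages below use 820 peak-free bins. Where well covered bins are named, nonzero entries with other chromosomes reached at least 0.5 of the median share in both maps, which held for 748 peak-free bins (90.56%, against 94.99% of other bins). With 1 library per cell type there is no test between the maps, and the 95% intervals below, taken over read pairs or read ends, cover counting error only, since read pairs without molecular identifiers are not independent molecules.

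Between chromosomes, peak-free bins met each other more often than they met bins with peaks, in both cell types. Relative to the mean over all pairs of bins on different autosomes, balanced contact among peak-free bins was 1.4 in naive cells (1.391 to 1.41) and 1.353 in plasma cells (1.343 to 1.364). Contact of peak-free with other bins was 0.786 in naive and 0.837 in plasma cells, and contact among other bins 1.071 and 1.052. Peak-free bins were above the mixed pairs in 171 of 171 pairs of chromosomes in each map, with a ratio of 1.78 in naive and 1.62 in plasma cells. The excess over the mean rests on the balancing. In the recovered read pairs, contact among peak-free bins was 0.997 of the mean in naive and 0.992 in plasma cells. They held 248481 read pairs (247504 to 249460) in naive and 207658 (206765 to 208554) in plasma cells, which is 2.90% and 2.89% of the read pairs on 2.91% of the bin pairs. In read pairs, too, contact among peak-free bins was above the mixed pairs in 171 of 171 pairs of chromosomes, by 1.60 times in naive and 1.45 times in plasma cells. Against pairs of bins with peaks, however, the balanced value was higher in 171 of 171 pairs of chromosomes in each map, and the read pairs per bin pair in 27 in naive and 31 in plasma cells.

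The separation of peak-free from other bins was narrower in the plasma map. Relative to each map's own mean, contact between peak-free and other bins was higher there in 125 of 171 pairs of chromosomes. Over all of them the log2 difference was 0.09 (0.086 to 0.099). As a part of all contacts of peak-free bins, this mixed contact was lower in plasma, at a median of 14.98% in naive and 13.04% in plasma cells. Contact among peak-free bins was lower in 102 and higher in 69 of the pairs, with a log2 difference of -0.05. Contact among other bins was lower in 104. All these classes are divided by the same mean, so a rise in mixed contact requires a fall in another class. When each value was taken relative to the mean of its own pair of chromosomes, a scale added after the data were seen, mixed contact was higher in plasma in 168 of 171 pairs. On that scale it went from 0.786 to 0.839, and contact among peak-free bins went from 1.42 to 1.38, lower in 110 of 171.

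Individual chromosomes differed widely in these contacts. Contact of a chromosome's peak-free bins with those of other chromosomes was lowest for chromosome 1, at 1.074 in naive and 1.15 in plasma cells, and highest for chromosome 19, at 2.02 and 1.93. The short chromosomes 15 to 18 stood at 1.67 to 1.74 in naive and 1.44 to 1.60 in plasma cells. The largest falls were those of chromosome 17 (1.675 to 1.435) and chromosome 16 (1.706 to 1.499), and the largest rises those of chromosome 6 (1.19 to 1.28) and chromosome 1. Among pairs of chromosomes, peak-free bins of 15 and 19 had the highest value in naive cells, 3.798 on 1330 read pairs, and 2.46 on 738 in plasma cells. Bins with peaks on the same chromosomes fell as well, from 2.67 to 1.76. Peak-free bins of chromosomes 2 and 19 showed the largest rise, from 1.116 on 560 read pairs to 1.67 on 713, where bins with peaks went from 1.033 to 1.222. The differences by pair of chromosomes were therefore shared by bins with and without peaks in these examples.

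**Figure D2:**
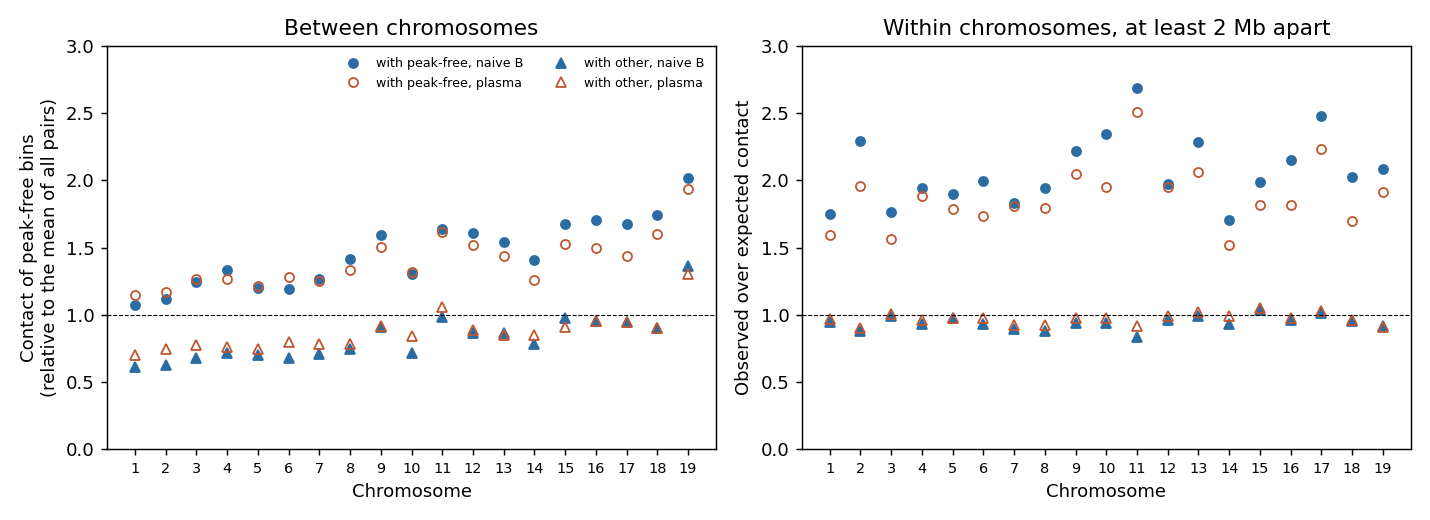
Contact of peak-free bins with peak-free bins (circles) and with other bins (triangles) for each autosome, in naive (filled) and plasma cells (open), between chromosomes relative to the mean of all pairs (left) and within chromosomes as observed over expected (right); points are means over bin pairs of 1 library. Within chromosomes every plasma circle lies below its naive circle (19 of 19), while between chromosomes the order varies.

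Within chromosomes, contact was divided by the mean of all used bins at the same distance on the same chromosome, so that 1 is the level expected from distance alone. At 2 Mb and more, contact among peak-free bins was 1.98 times the expected in naive cells (1.969 to 1.989) and 1.80 times in plasma cells (1.788 to 1.816). It was lower in plasma on 19 of 19 chromosomes, with a log2 difference of -0.135. Across chromosomes it ran from 1.708 (chromosome 14) to 2.69 (chromosome 11) in naive cells, and those chromosomes were also lowest and highest in plasma cells, at 1.522 and 2.51. Peak-free bins met other bins at 0.938 of the expected in naive and 0.968 in plasma cells. This mixed contact was higher in plasma on 18 chromosomes, and chromosome 19 was the exception, at 0.916 and 0.911. Bins with peaks met each other at 0.984 and 0.979. In the recovered read pairs the values among peak-free bins were lower, 1.51 in naive and 1.41 in plasma cells, and remained above the mixed pairs on 19 of 19 chromosomes in both maps.

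The preference grew with distance up to 20 to 39.5 Mb in naive and 40 to 79.5 Mb in plasma cells, and was smaller again from 80 Mb on. Adjacent peak-free bins, 0.5 Mb apart, met at 0.963 of the expected in naive and 0.927 in plasma cells, below adjacent bins with peaks (1.06 and 1.05) and above mixed neighbours (0.814 and 0.844). At 1 Mb the value among peak-free bins was 1.248 in naive and 1.253 in plasma cells, and at 1.5 Mb 1.433 and 1.427, so that the maps were close up to there. At 2 to 2.5 Mb it was 1.74 in naive and 1.54 in plasma cells, at 20 to 39.5 Mb it was 2.08 and 1.867, and from 80 Mb on it was 1.78 and 1.64. Leaving out pairs within 1 run gave the same 1.98 and 1.80 over all pairs of at least 2 Mb.

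**Figure D3:**
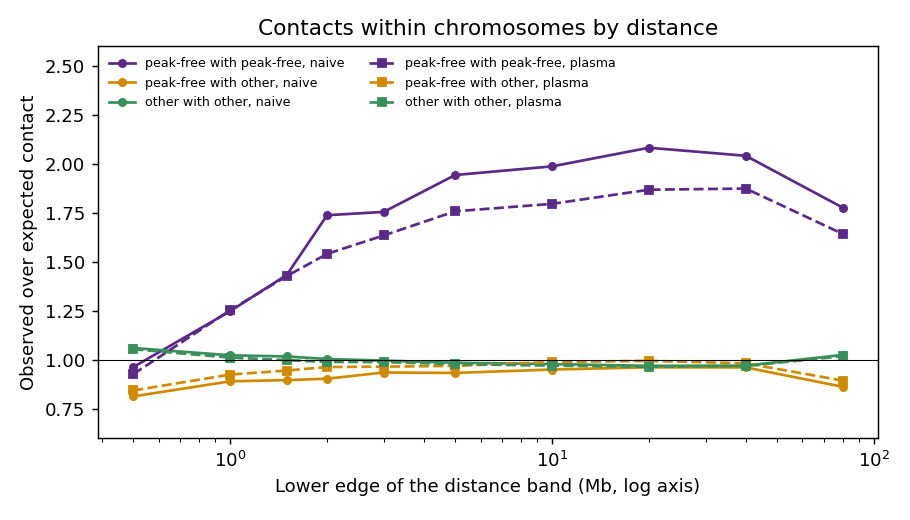
Observed over expected contact within chromosomes (vertical axis) by genomic distance in Mb (log axis, lower edge of each band) for pairs of peak-free bins, mixed pairs and pairs of bins with peaks, in naive (solid lines) and plasma cells (dashed lines). Pairs of peak-free bins start below 1 at 0.5 Mb and reach 2.08 in naive and 1.867 in plasma cells at 20 to 39.5 Mb.

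Contact with peak-free bins fell with the number of peaks in a bin, without a step between 0 and 1 peak. In naive cells, between chromosomes, it was 1.4 for peak-free bins, 1.38 for bins with 1 peak, 1.29 for 2 or 3 peaks, 0.984 for 4 to 7, 0.704 for 8 to 15, 0.459 for 16 to 31 and 0.296 for at least 32. In plasma cells the same classes had 1.353, 1.325, 1.284, 1.007, 0.779, 0.555 and 0.407. The span was smaller in the plasma map at both ends. The contact of peak-free bins with the bins of at least 32 peaks rose most on this scale, from 0.296 to 0.407.

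**Figure D4:**
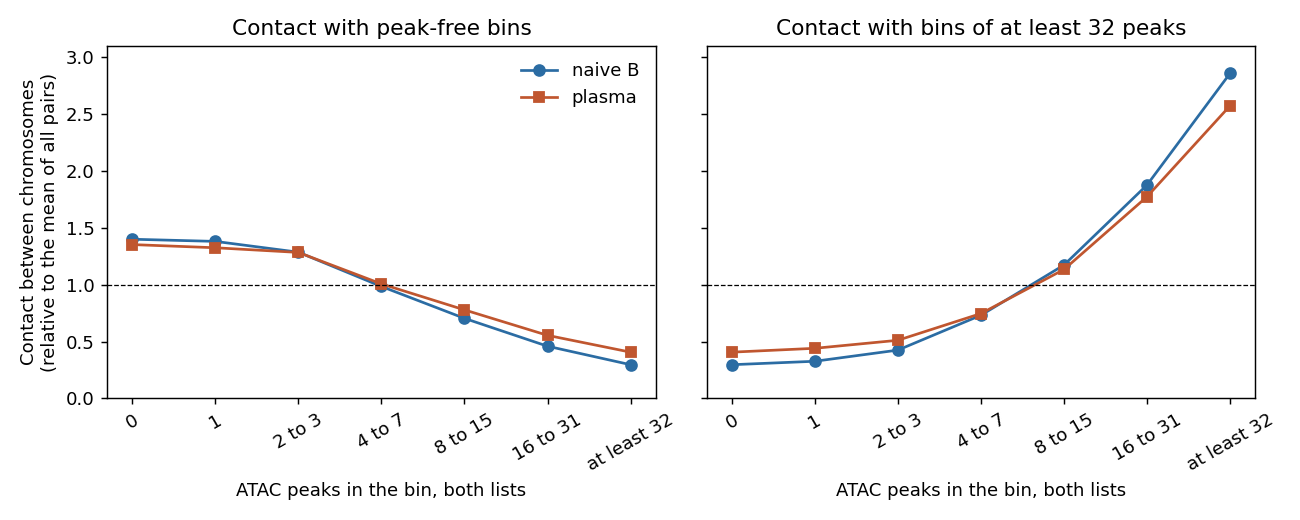
Contact between chromosomes, relative to the mean of all pairs (dashed line at 1), for bins grouped by their number of ATAC peaks over both lists, with peak-free bins (left) and with bins of at least 32 peaks (right), in naive B and plasma cells. Peak-free bins and bins with 1 peak have nearly the same level of contact with peak-free bins, 1.4 and 1.38 in naive cells.

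Peak-free bins made fewer of their contacts with other chromosomes than bins with peaks, and this share was lower in plasma cells. The median share of a bin's balanced total that lay on other autosomes was 20.59% in naive and 17.36% in plasma cells for peak-free bins. It was 21.13% and 17.85% for bins with 1 peak, and 24.09% and 19.36% for all bins with peaks. The share was lower in plasma in 715 of 820 peak-free bins, with a median difference of -3.05 percentage points, and in 3688 of 3981 bins with peaks, with -4.51 points. Pooled over read ends on autosomes, the share for peak-free bins was 21.48% (21.45 to 21.51%) in naive and 18.2% (18.17 to 18.22%) in plasma cells. For bins with peaks it was 24.35% and 19.59%. A plasma share of at most 0.8 of the naive share was found in 287 of 820 peak-free bins, or 35%, and in 163 of 448 bins with 1 peak, or 36.38%, against 45.1% of all balanced bins. A plasma share at least 25% higher was found in 9 of 820 (1.10%) and in 2 of 448 bins with 1 peak, against 0.417% of all. The fall was thus common to the whole map, and its frequency in peak-free bins was close to that in bins with 1 peak.

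**Figure D5:**
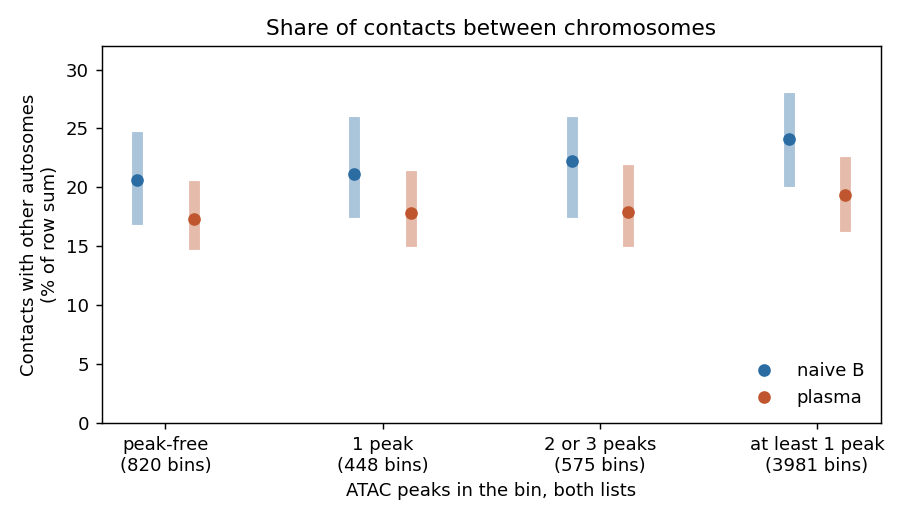
Share of each bin's balanced contacts that lay on other autosomes (percent of the row sum) in naive B and plasma cells, for peak-free bins, bins with 1 peak, bins with 2 or 3 peaks and all bins with at least 1 peak; points are medians over bins and bars run from the lower to the upper quartile of bins of 1 library. Peak-free bins have the lowest medians in both maps, 20.59% and 17.36%.

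At short range the shares were higher in plasma cells. For peak-free bins, the median share within 0.5 to 1.5 Mb was 11.27% in naive and 15.58% in plasma cells, and it was higher in plasma in 810 of 820 bins. At 2 to 9.5 Mb it was 11.57% and 13.82%, and from 10 Mb to below 50 Mb 22.44% and 24.74%. From 50 Mb on it was 9.91% and 4.09%, lower in plasma in 784 bins. The same held for all bins with peaks, whose share within 0.5 to 1.5 Mb was 12.26% and 16.75%, and from 50 Mb on 8.50% and 3.47%. The part of the contacts that peak-free bins made with peak-free bins of other autosomes went from 5.542% to 4.298%, and the part with other bins of other autosomes from 14.98% to 13.04%.

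The first principal component of each chromosome's contacts placed nearly all peak-free bins in the B compartment. Its sign was set by peak count, which also chose the bins, so these counts describe the bins and support nothing. Of 748 well covered peak-free bins, 726 were in B in naive cells (97.06%) and 743 in plasma cells (99.33%), against 40.62% and 45.0% of bins with peaks and 95.43% and 97.72% of bins with 1 peak. By sign, 17 peak-free bins were in A in naive and B in plasma cells, and 0 the reverse. Bins with peaks also had fewer in A in plasma, 2084 of 3789 against 2250 in naive cells. Their moves by sign in each direction were not counted, so the 17 are not read as particular to peak-free bins. With both values beyond 0.25 SD, 5 of 748 went from A to B (0.668%), against 1.01% of all well covered bins. From B to A 0 of 748 went, which would allow up to 0.492% if bins were independent, against 0.132% of all. The component itself had a median of -1.23 in naive and -1.24 in plasma cells, and was lower in plasma in 454 and higher in 294 of the bins, with a median change of -0.02. Bins with peaks leaned the same way, with 2177 of 3789 lower and a median change of -0.03.

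The 5 peak-free bins in A in both maps were chr6:32500001-33000000, chr6:114000001-114500000, chr7:51000001-51500000, chr11:34000001-34500000 and chr15:74000001-74500000, named after their values were seen. Each was a run of a single bin. The bins on their sides held 1 and 10 peaks for the first, 25 and 30 for the second, 30 and 39 for chr7:51000001-51500000, 10 and 11 for chr11:34000001-34500000 and 10 and 41 for the last. Their contact with peak-free bins of other chromosomes was low, from 0.357 to 0.850 in naive and from 0.471 to 0.868 in plasma cells. For the 22 peak-free bins in A in naive cells the median contact with peak-free bins was 0.748, below their contact with other bins, 0.954. For the 726 in B these were 1.402 and 0.767.

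Within the B compartment, peak-free bins met each other more often than bins with peaks met each other. Over all bins, the read pairs ranked the other way in most pairs of chromosomes, as given above. Bins with 1 peak were not taken apart here. Over all bins, their contact with peak-free bins was 1.38 in naive and 1.325 in plasma cells, close to that among peak-free bins. Taking bins in B in both maps, contact between chromosomes among peak-free bins was 1.44 in naive and 1.387 in plasma cells. Contact of peak-free bins with B bins that had peaks was 1.228 and 1.213, and contact among the 1488 B bins with peaks 1.208 and 1.165. The first was above the last in 169 of 171 pairs of chromosomes in naive and 168 in plasma cells. In recovered read pairs per bin pair, the values among peak-free B bins were 0.892 in naive and 0.739 in plasma cells, and among B bins with peaks 0.762 and 0.640, with the first above the last in 159 and 167 pairs of chromosomes. The median share of contacts on other autosomes was 20.92% and 17.65% for peak-free B bins, 22.66% and 18.2% for B bins with peaks, which held a median of 3, and 25.36% and 20.34% for bins in A in both maps.

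Among the peak-free bins themselves, the level of contact differed with run length and position. The median contact with peak-free bins of other chromosomes was 1.365 in naive and 1.272 in plasma cells for the 311 well covered single bins. It was 1.421 and 1.361 for the 226 bins in runs of at least 3. Contact with peak-free bins was above contact with other bins in 226 of 226 bins of the longer runs in both maps, and in 278 of 311 single bins in naive and 292 in plasma cells. The 47 bins in the first 12 Mb had the highest medians, 1.787 and 1.906, and their contact with peak-free bins was lower in plasma in only 14 of them, against 407 of the 649 bins between the ends, whose medians were 1.366 and 1.269. The same 47 bins met bins with peaks at 0.976 in naive and 1.145 in plasma cells, higher in plasma in 42. Their share on other autosomes was 26.58% and 24.39%, a smaller difference (-1.53 points) than between the ends (-3.20 points). The 52 bins in the last 12 Mb had medians of 1.518 and 1.398. Bins with peaks were not divided by position. Whether these differences by position are particular to peak-free bins is therefore not known.

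The longest run was chr12:5000001-8000000, 6 bins near the centromere-side end of chromosome 12, with 19 and 20 peaks in the bins on its sides. It held 20621 read pairs with other autosomes in naive and 18647 in plasma cells. Its mean contact with peak-free bins of other chromosomes was 1.969 and 1.873, its share on other autosomes 27.5% and 22.9%, and its component -1.10 and -1.14. The 6 runs of 5 bins were chr3:24000001-26500000, chr8:16000001-18500000, chr9:27500001-30000000, chr11:91000001-93500000, chr12:60500001-63000000 and chr17:58000001-60500000. Their contact with peak-free bins lay between 1.397 and 1.97 in naive and between 1.272 and 1.93 in plasma cells, and was lower in plasma in all 6. The run on chromosome 17 differed most, from 1.627 to 1.367, with a share on other autosomes of 24.6% and 17.9%. The run on chromosome 11 kept its share, at 27.4% and 27.2%, and its contact with other bins went from 0.973 to 1.234.

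Of the 13 runs of 4 bins, 3 were taken in chromosome order. The run chr1:125000001-127000000 had the lowest contact with peak-free bins of the runs named here, 0.907 in naive and 0.809 in plasma cells, and a share on other autosomes of 12.2% and 10.6%. The run chr2:7500001-9500000 went the other way, from 1.457 to 2.05 in contact with peak-free bins, from 0.901 to 1.238 in contact with other bins, from 23.2% to 26.9% in share and from -1.21 to -0.83 in component. The run chr2:39500001-41500000 rose as well, from 1.241 to 1.569 in contact and from 17.2% to 18.7% in share. Its read pairs with other autosomes numbered 6229 and 7522. Both named runs on chromosome 2 thus had a higher share in plasma cells, against the direction in most peak-free bins.

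The bins named next are the extremes of 748 well covered peak-free bins, so their differences are not comparable with the run averages above. The 5 largest falls of the share among well covered peak-free bins were in runs of a single bin, as were 311 of all 748. In chr16:97000001-97500000, close to the chromosome end, the share went from 37.9% to 24.0%, and in read ends from 36.7% (36.01 to 37.38%) to 23.2% (22.55 to 23.77%). Its component was -0.02 in naive and -0.66 in plasma cells. In chr19:51500001-52000000 the share went from 39.4% to 26.8% and contact with peak-free bins from 2.92 to 2.10. On the same chromosome, chr19:50000001-50500000 went from 39.02% to 27.31%. In chr13:57000001-57500000 the share went from 28.1% to 15.5%, and in chr16:89000001-89500000 from 30.9% to 18.9%. Of these 5 bins, 4 lay within 12 Mb of the chromosome end, as did 52 of all 748 well covered peak-free bins.

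The 5 largest rises were smaller, and all lay in runs of at least 2 bins. Of all 748 well covered peak-free bins, 211 lay in runs of 2 bins and 226 in longer runs. The bins with these rises on chromosomes 2 and 13 lay 7.75 to 9.25 Mb from the chromosome start. In chr10:48500001-49000000 the share went from 16.1% to 22.4%, and in read ends from 18.4% (17.45 to 19.3%) to 21.2% (20.3 to 22.08%). The bins chr2:8500001-9000000 and chr2:9000001-9500000 belong to the run on chromosome 2 described above, and went from 21.9% to 27.1% and from 22.7% to 26.4%. In chr13:7500001-8000000 the share went from 23.8% to 28.0% in balanced values, but in read ends from 26.8% (25.82 to 27.8%) to 28.21% (27.31 to 29.13%), intervals that overlap. In chr11:91000001-91500000 it went from 27.1% to 30.8%, and in read ends from 25.95% (25.19 to 26.72%) to 26.0% (25.23 to 26.77%), which overlap as well.

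The 20 runs of at least 4 bins formed 181 pairs on different chromosomes. Contact was above the mean of all bin pairs in 144 pairs in naive and 129 in plasma cells, and in both maps in 109. The overlap that these separate counts alone would give was not computed. The same share was not counted for pairs of other bins, so whether these counts are particular to peak-free runs is not known. The median relative contact was 1.648 in naive and 1.495 in plasma cells, with 93 pairs higher and 88 lower in plasma. The median pair rested on 16 read pairs in naive and 14 in plasma cells, so most single pairs are imprecise. At least 50 read pairs in both maps were found for 7 pairs, a choice that favours high contact, and these joined 5 runs on chromosomes 8, 9, 12, 14 and 16. The highest was chr9:27500001-30000000 with chr16:6000001-8000000, at 4.15 in naive cells on 89 read pairs (71.5 to 110) and 5.77 in plasma cells on 96 (77.8 to 117). The run on chromosome 16 met the longest run, on chromosome 12, at 3.02 on 64 read pairs (49.3 to 81.7) and 4.47 on 72 (56.3 to 90.7). It met chr8:16000001-18500000 at 3.54 and 4.40, and chr14:28500001-30500000 at 3.59 and 4.23. The runs on chromosomes 8 and 9 met each other at 3.34 and 3.44. Relative contact was higher in plasma in all 7 pairs, by 0.014 to 0.565 on the log2 scale. The counting intervals of the read pairs in naive and plasma cells overlapped in each of the 7. Those intervals are on counts not scaled to each map's total, so they do not bear on the relative contact. With few read pairs and 1 library per cell type, no direction is read from these pairs.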

How the data were processed

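The submitters used kallisto, MACS 1.4, Bowtie, TopHat, Picard and HOMER with build mm9, per the submitters' processing notes, and no settings are known from the labels. The deposited ATAC peak lists give 1 score per peak by the authors' peak caller, used only for an alternative with a minimum of 100. Contact maps were deposited as a signal that the authors balanced to equal row sums, in bins of 500 kb and 2 Mb. The deposited lists of 1 Mb interactions give read pair counts, and the deposited RNA files TPM per transcript, per the file headers. TPM were summed by gene symbol or, failing that, gene identifier, and of the markers only Ighd was unmatched.

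Chromosomes were located in the maps by the 6 empty bins at each start. Read pairs were recovered by finding the row weights that make entries whole: 99.95% and 100% of nonzero entries between chromosomes were whole within 0.05, and 99.998% and 100% of 102912 and 98748 listed interactions had the same read pairs. Intervals are exact Poisson or Clopper-Pearson at 95%, for relative contacts with the effective number of read pairs after weighting (Python 3.11.15, numpy 2.4.6, scipy 1.17.1, pandas 2.3.3). The code for recovery, contact classes and compartments was tested on simulated data.

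Regions named are the 10 longest runs, the 5 largest falls and 5 largest rises of the share, and pairs of runs of at least 2 Mb with at least 50 read pairs in both maps. The bins, lists and settings were chosen with earlier results of these data known. Gene annotation and sequence were not used here, since the reference given is of another build.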

Additional observations from a re-analysis of the deposited data

How the results depend on the processing

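No paired analysis was possible because each cell type had 1 library per assay and the labels carry no replicate numbers; no replicate could be left out either. Of 71 values recomputed under alternatives, 28 stayed within the 95% interval of the reported value or, for the number of bins, within 1.5 times it, 42 moved further and 1 changed direction. In all of them but those from the 2 Mb maps, relative contact among peak-free bins was lower in plasma than in naive cells. In the same alternatives, relative mixed contact was higher in plasma. Values are given as naive and plasma contact among peak-free bins, and the log2 difference of mixed contact. The cause was not tested unless named. Counting peaks with a score of at least 100 gave 1386 bins, of which 77.1% adjoined another. Between chromosomes it gave 1.41 in naive cells and a mixed difference of 0.133, and within chromosomes 1.90, 1.74 and 0.120. In recovered read pairs, between chromosomes gave 0.997, 0.992 and 0.130, within chromosomes 1.51, 1.41 and 0.0797, and the share difference was -3.19 points. Well covered bins gave 2.02, 1.83 and 0.0590 within chromosomes and a share difference of -3.14 points. Without the first and last 12 Mb, between chromosomes gave 1.43 and 1.38, and within chromosomes 2.01 and 1.83. Medians over chromosomes or their pairs were 1.42 and 1.41 between and 1.99 and 1.82 within. Pairs at least 10 Mb apart gave 1.99 and 1.82, and an expected value over all autosomes 2.00, 1.84 and 0.0547. Chosen after seeing the data, including unbalanced bins gave 1.39 and 1.34 between and 1.96 and 1.79 within chromosomes, and the mean of the same pair of chromosomes as reference gave 1.42 and 1.38. The 2 Mb maps hold only 8 wholly peak-free bins and 1 pair of them on a chromosome: they gave 2.23, 2.84 and 0.134 between, and 1.29, 2.12 and -0.0128 within chromosomes. The median pair of runs of at least 4 bins rested on 16 and 14 read pairs, which limits what single pairs show.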

Other observations

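The authors' deposited lists of interactions in 1 Mb bins give a separate view of the same maps. Of these bins, 137 consisted wholly of peak-free 500 kb bins, and 1712 had no peak-free part. The 549 bins with 1 peak-free part are in none of the classes below. Within chromosomes, 263 of 551 possible pairs of wholly peak-free bins were listed in naive cells (47.73%) and 304 in plasma cells (55.17%). Of the mixed pairs, of a wholly peak-free bin and a bin with no peak-free part, 6.201% and 6.495% were listed. Of the pairs of bins with no peak-free part, 2.08% and 2.32% were. A total of 198 peak-free pairs were listed in both maps, which is 75.29% of the naive and 65.13% of the plasma list.

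Between chromosomes, 310 of 8765 peak-free pairs were listed in naive (3.54%) and 363 in plasma cells (4.14%). For mixed pairs the shares were 0.367% and 0.667%, and for pairs of bins with no peak-free part 3.07% and 2.75%. A total of 60 peak-free pairs were listed in both, 19.35% of the naive and 16.53% of the plasma list. The median listed peak-free pair rested on 10 read pairs in each map. Listing depends on read depth and on the authors' background model, so these shares are not levels of contact. The overlap of the lists was not counted for the other classes, within or between chromosomes. Whether the overlaps given are particular to peak-free pairs is therefore not known.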
